A study of Mus musculus with 4 samples.

Results

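The receptors examined, chosen by symbol, guide white blood cells into, within and out of a lymph node: Ccr2, Ccr6, Ccr7, Ccr9, Cxcr3, Cxcr4, Cxcr5, Xcr1, Gpr183 and S1pr1. All 10 were found among the 31053 genes of the deposited matrix. The data are single-cell RNA profiles (10x 3' version 3 chemistry) of inguinal lymph nodes that drained B16F10 melanomas grown on both thighs of C57BL/6J mice. All mice bore tumours, and 2 control mice received nothing else. From day 9, 2 treated mice drank indoximod at 2 mg/ml and were injected each day with 350 ug ibrutinib; they were given cyclophosphamide (150 mg/kg) on day 10, and nodes were taken 48 h after it. The age and sex of the mice are not given in the sources used here. The matrix carries 4 library suffixes, 1 to 4, which no source used here ties to a mouse or to a treatment. The libraries are therefore given one by one, no treated-against-control comparison was made, and no p-value is given.

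Most of these receptors bind a chemokine and signal through an inhibitory G protein, so that a cell carrying the receptor moves towards the source of its ligand. In a lymph node, Ccr7 reads the chemokines Ccl19 and Ccl21 of the T zone, Cxcr5 reads Cxcl13 of the follicle, and Cxcr4 reads Cxcl12, which in germinal centres marks the dark zone. Gpr183 senses oxysterols that place B cells, helper T cells and dendritic cells at follicle edges, and S1pr1 senses sphingosine 1-phosphate, which is high in lymph and draws lymphocytes out of the node. Ccr2, Ccr6, Ccr9, Cxcr3 and Xcr1 read Ccl2, Ccl20, Ccl25, Cxcl9 with Cxcl10, and Xcl1, and are best known from monocytes, mucosal and IL-17-producing lymphocytes, gut-homing cells, type 1 effector cells and cross-presenting dendritic cells.

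Ccr9, Xcr1 and Ccr2 lie in 1 stretch of chromosome 9 (GENCODE vM21 annotation of GRCm38). Ccr9 spans chr9:123678439-123784330, Xcr1 spans chr9:123852315-123862029 and Ccr2 spans chr9:124101950-124113557, with other chemokine receptor genes such as Cxcr6, Ccr1 and Ccr3 beside them. Only 68.0 kb separate Ccr9 from Xcr1, and 240 kb separate Xcr1 from Ccr2, yet the 3 genes had their highest levels in 3 different cell classes. Of the others, Cxcr5 is also on chromosome 9, Cxcr4 on 1, S1pr1 on 3, Ccr7 on 11, Gpr183 on 14, Ccr6 on 17 and Cxcr3 on X. The DNA just before the annotated transcription start is shown for the neighbours Ccr9 and Xcr1, and for Ccr6 and Gpr183. By summed level, Ccr6 and Gpr183 were highest in the same class, although Gpr183 there overlapped with the next class. The sequences are from RefSeq (GRCm38.p6), printed 5' to 3' on the gene's strand, without bases inside annotated exons, and with motif matches in capitals. They cover chr9:123766961-123767168 (plus strand), chr9:123862030-123862279 (minus), chr17:8235793-8236042 (plus) and chr14:121965196-121965443 (minus), in the order given. The Ccr9 start in RefSeq lies inside the longer GENCODE span of the gene.
Ccr9: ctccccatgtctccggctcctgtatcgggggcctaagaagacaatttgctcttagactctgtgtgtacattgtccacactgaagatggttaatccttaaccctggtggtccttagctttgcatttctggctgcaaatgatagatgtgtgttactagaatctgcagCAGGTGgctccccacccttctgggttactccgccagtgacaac
Xcr1: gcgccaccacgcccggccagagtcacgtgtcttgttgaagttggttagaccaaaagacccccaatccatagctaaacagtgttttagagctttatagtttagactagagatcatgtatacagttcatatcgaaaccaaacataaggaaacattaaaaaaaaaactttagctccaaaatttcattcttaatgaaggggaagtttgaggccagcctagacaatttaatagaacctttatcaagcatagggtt
Ccr6: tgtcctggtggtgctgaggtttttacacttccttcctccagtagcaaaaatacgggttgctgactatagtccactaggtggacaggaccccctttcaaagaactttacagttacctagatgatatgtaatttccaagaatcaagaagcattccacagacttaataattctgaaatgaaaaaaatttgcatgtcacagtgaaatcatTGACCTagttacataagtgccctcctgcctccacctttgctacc
Gpr183: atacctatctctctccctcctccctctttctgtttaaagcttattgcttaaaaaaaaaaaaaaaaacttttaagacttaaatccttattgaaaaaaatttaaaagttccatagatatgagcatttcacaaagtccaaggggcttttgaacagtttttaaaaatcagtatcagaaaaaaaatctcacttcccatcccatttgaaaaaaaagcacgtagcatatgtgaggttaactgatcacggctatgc
Upstream entries were found for 7 of the 10 receptors. Both strands were searched for the E-box motifs CAGCTG and CACCTG, the AP-1 motif TGANTCA, a motif of interferon regulatory factors and the nuclear receptor motif AGGTCA, with overlapping matches counted separately. The Ccr9 sequence held 1 CACCTG (in capitals as its reverse complement), which 17.2% of 32817 promoter windows of 250 bases also held. The Ccr6 sequence held 1 AGGTCA (also as its reverse complement), present in 14.0% of those windows. None of the 5 motifs was found in the Xcr1 and Gpr183 windows. The shares were 6.75% for TGANTCA and 2.97% for the interferon regulatory factor motif. A match is a run of letters and not a measured binding site.

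Of 30824 barcodes, 26096 had at least 300 genes and at most 10% mitochondrial UMIs (unique molecular identifiers, each counting 1 RNA molecule). The libraries held 6978 to 9831 barcodes each, against about 2000 cells per sample in the labels, with 5667 to 8336 kept and median depths of 5229 to 5558 UMIs. Marker genes placed 19219 cells (73.6%) in 16 classes of at least 20 cells, named "-like" because the classes rest on markers and not on an annotation by the authors. A further 1360 barcodes with both B and T markers, median 9826 UMIs, were left out, and 4014 stayed without a class. Some mixed barcodes remain inside classes, and 86 barcode sequences occurred in more than 1 library. Separate check markers were over 2-fold higher than in other cells for 6 of 6 genes in B-like cells, 5 of 6 in germinal centre B-like cells (Tox was not), 7 of 7 in mature dendritic cell-like (DC) cells, 0 of 5 in other CD4 T cells, 0 of 2 in marker-negative CD8 T cells and 1 of 4 in other gamma-delta T-like cells. The latter 3 classes are therefore called by their gates only. Marker-positive CD8 T cells are those with at least 2 of 7 effector-type markers, and 3 of their 6 check markers passed, with Cd44 below other cells. That class is therefore called by its rule and not as memory. A level is given in CPM, the UMIs of a gene scaled to 1000000 UMIs of the class, with its exact 95% Poisson interval where a single sum matters. Intervals cover counting error only.

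Each receptor had its own distribution over the classes, and the level range was wide. S1pr1 had the most UMIs, 38115 in kept barcodes (231 CPM), then Ccr7 with 31126 (188 CPM) and Gpr183 with 18426 (111 CPM). Ccr9 had 6229 UMIs, Ccr6 5418, Cxcr4 4947, Cxcr5 4172, Ccr2 3412 and Cxcr3 2342. Xcr1 had only 245, in 79 barcodes. Because these are 3' counts, CPM is compared here between classes for 1 gene and not between genes.

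**Figure D1:**
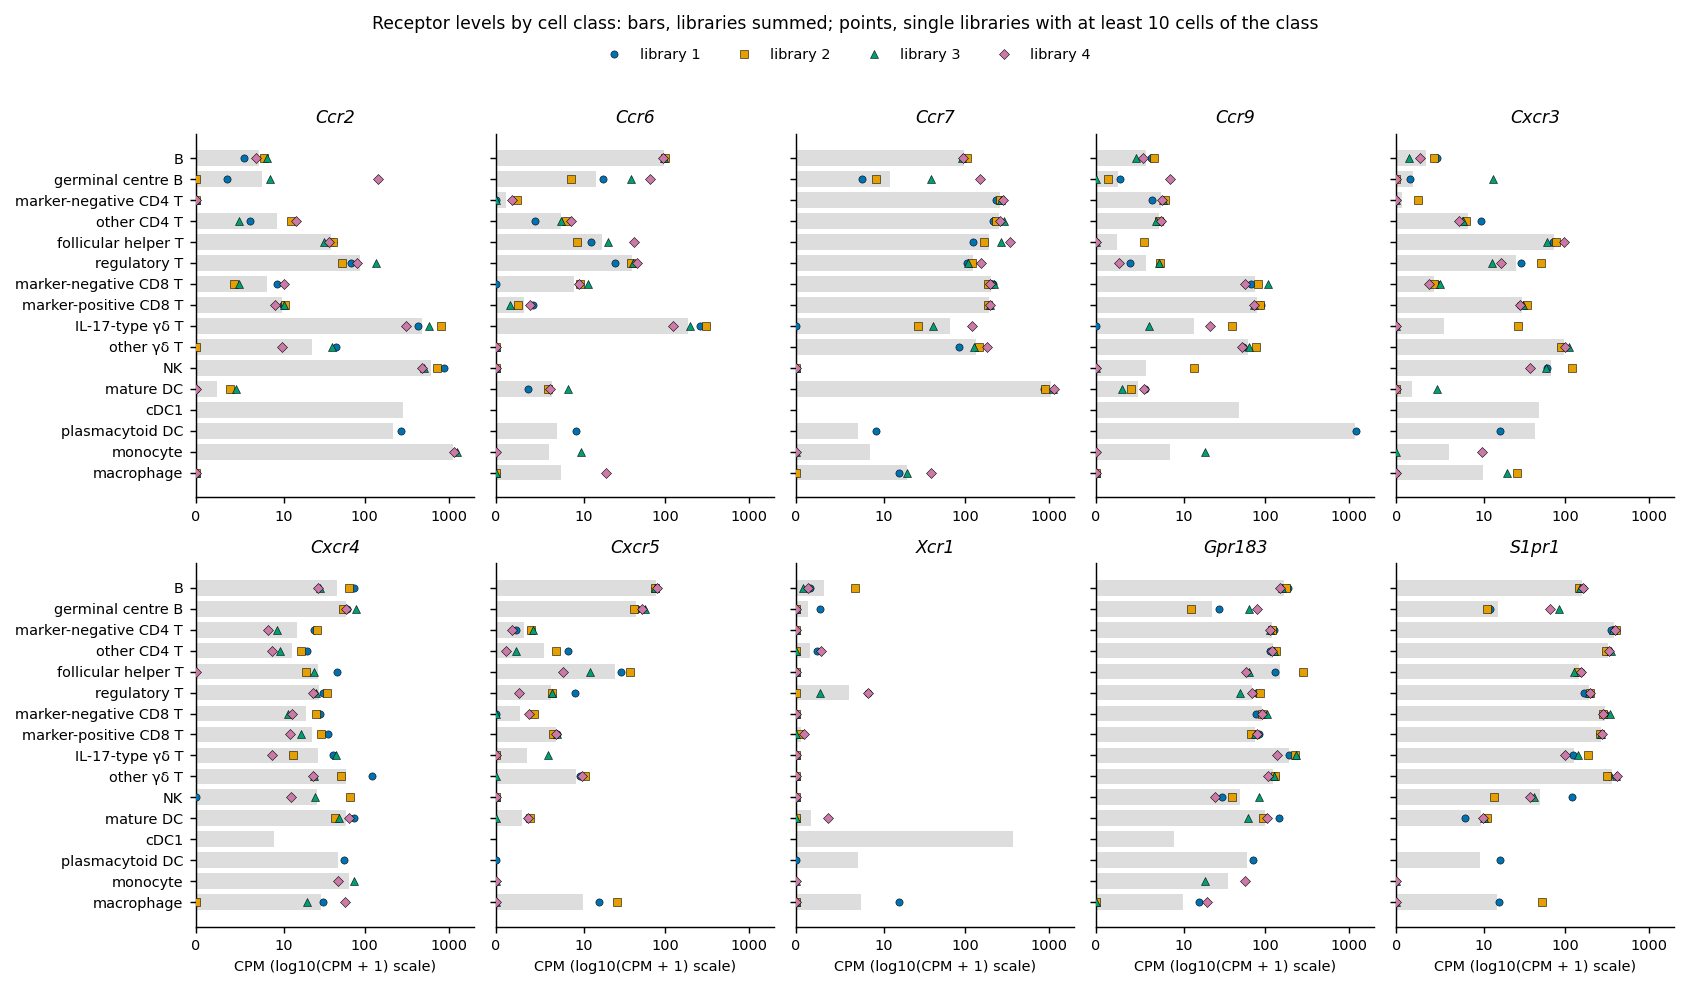
Level of each receptor by cell class. The horizontal axis is CPM on a log10(CPM + 1) scale, grey bars are the 4 libraries summed and points are single libraries with at least 10 cells of the class. Ccr7 peaks at 1050 CPM in mature DC-like cells, Ccr9 at 1162 in plasmacytoid DC-like cells and Xcr1 at 370 in cDC1-like cells, for which no library has 10 cells.

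Among the classes compared, the egress receptor S1pr1 was highest in T cells and B-like cells. Germinal centre B-like and NK-like cells had 15.3 and 50.2 CPM, and no endothelial-like cell was found. Marker-negative CD4 T cells lack the helper, follicular and effector markers of the other CD4 classes. In them S1pr1 stood at 355, 408, 375 and 396 CPM in libraries 1 to 4, the order used throughout. Other gamma-delta T-like cells (330, 314, 401 and 415) and other CD4 T cells (318, 307, 349 and 333) overlapped with them over the libraries. Marker-negative CD8 T cells followed at 298, 283, 347 and 284, then marker-positive CD8 T cells at 258, 263, 267 and 275. Regulatory T-like cells were below these classes in every library, at 170, 199, 195 and 196. In B-like cells S1pr1 was 162, 147, 151 and 164. Mature DC-like cells had only 5.5, 10.9, 10.1 and 9.6 CPM, and no S1pr1 UMI was found in 33 monocyte-like or 23 cDC1-like cells, which allows up to 9.78 and 11.1 CPM at a limit of 3 counts.

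Klf2, the transcription factor known to switch S1pr1 on, was also low where S1pr1 was lowest among well-filled classes: 21.0 CPM in mature DC-like cells and 85.8 in germinal centre B-like cells, against 726 in other B-like and 541 in marker-negative CD4 T cells. It was not low in NK-like cells (705 CPM), although S1pr1 there was 50.2 CPM. S1pr5, the sphingosine 1-phosphate receptor known for NK cell egress, had 22 UMIs in 57 NK-like cells (64.9 CPM) and 9 in 5079 marker-positive CD8 T cells (0.22 CPM). Over 13 classes of at least 50 cells, the genes most like S1pr1 by Pearson's correlation of log2(CPM + 10) were Grap2 (0.96), Scml4 (0.96) and Dgka (0.95), out of 5075 genes that reached 50 CPM in 1 class. The classes share libraries and differ in depth, so these correlations only describe.

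Ccr7, the T-zone receptor, was highest in mature DC-like cells, at 882, 894, 1129 and 1148 CPM. All 4 libraries lay above every library of every other class. Among T cells the order ran from marker-negative CD4 (234, 260, 272 and 284) and other CD4 (218, 232, 295 and 260) to marker-negative CD8 (217, 187, 223 and 197) and marker-positive CD8 (193, 187, 202 and 199), and libraries of neighbouring classes overlapped. B-like cells had 96.3, 106, 93.0 and 94.6. No Ccr7 UMI was seen in 57 NK-like, 23 cDC1-like or 13 cDC2-like cells.

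Mature DC-like cells had Gpr183 and Cxcr4 besides Ccr7. Compared with cDC1-like cells, the resident cross-presenting dendritic cells, a receptor was called higher or lower only when its CPM differed at least 1.5-fold in 1 direction in every library with enough counts (at least 10 over both classes and 3 expected in each), with at least 2 such libraries. By this rule 3 of 4 receptors with enough counts were called higher in mature DC-like cells, beside 26.2% of all genes (776 genes, but 1627 with TMM and 1561 with median-of-ratios scaling, so that the share of calls that were higher went from 65.8% to 89.8% and 90.1%): Ccr7 (at least 94.7-fold, against a limit of 3 counts), Gpr183 (log2 ratio 3.76) and Cxcr4 (2.99). Ccr2 was called lower (log2 ratio -8.50; 13.6% of all genes were called lower), with 3 UMIs in 438 mature cells and 77 in 23 cDC1-like cells. The Ccr2 UMIs of the cDC1-like class came mostly from libraries 1 and 2 (34, 41, 2 and 0), and without library 1 or library 2 Ccr2 had too few libraries to be called. Cxcr4 likewise lost its call without library 1 or library 3. Gpr183 in mature DC-like cells was 146, 95.2, 62.9 and 104 CPM. The Gpr183 and Cxcr4 ratios each rested on only 2 UMIs (7.39 CPM) on the cDC1-like side. Of the 59 other homing genes fixed as a list, 8 of 12 with enough counts were called higher and 0 lower, with a median log2 ratio of 1.58 (0.16 over all genes tested). They included Rgs1, a brake on chemokine receptor signalling (401 CPM against 0 UMIs), Cxcl16 (967 against 126 CPM), Cxcl13 (145 against 7.4) and Arrb2, a receptor-internalising arrestin (89.7 against 14.8).

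By level, Xcr1 stood out in cDC1-like cells among the 16 classes. The 23 cells held 100 of the 245 Xcr1 UMIs of kept barcodes (17, 22, 50 and 11 by library). Their level was 370 CPM (301 to 450), and every other class was under 5 CPM. The remaining UMIs lay in other classes and in barcodes outside the 16 classes. Part of the Xcr1 in other classes sat in single cells with markers of 2 lineages. In library 2, 31 of the 34 Xcr1 UMIs of B-like cells were in 1 cell that also had 6 of 6 cDC1 markers. Leaving out the 113 B-like cells that also reached the marker minimum of a myeloid or dendritic class lowered Xcr1 in B-like cells from 1.13 to 0.284 CPM.

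Ccr9, the gut- and thymus-homing receptor, was highest in plasmacytoid DC-like cells at 1162 CPM (1027 to 1311), with UMIs from all 4 libraries (152, 48, 24 and 42 in 33 cells). Against cDC1-like cells 1 of 3 receptors with enough counts, Ccr9, was called higher (log2 ratio 4.60; 18.3% of all genes) and 1, Xcr1, lower (-6.40; 13% of all genes). Plasmacytoid DC-like cells had no UMI of Cxcl9, and cDC1-like cells had 728 CPM of it. Ccr9 next appeared in CD8 and other gamma-delta T cells: 89.7, 86.9, 73.6 and 73.3 CPM in marker-positive CD8 T, 66.9, 83.4, 108 and 57.9 in marker-negative CD8 T, and 54.2, 78.4, 64.2 and 52.4 in other gamma-delta T-like cells.

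Among T cells Ccr9 separated the CD8 from the CD4 lineage. In marker-negative CD4 T cells it was 3.7, 5.6, 5.2 and 5.0 CPM, and in regulatory T-like cells 2.95 CPM. Against marker-negative CD4 T cells, 1 of 5 receptors with enough counts was called higher in marker-negative CD8 T cells, beside 1.3% of all genes: Ccr9, 15.7-fold, with library log2 ratios of 3.54 to 4.37. None was called lower (0.956% of all genes). Ccr7 (log2 ratio -0.37), S1pr1 (-0.36) and Gpr183 (-0.39) differed little. From the list of other homing genes Xcl1, the ligand of Xcr1, was called higher (86.6 against 0.33 CPM), but its UMIs came from libraries 2 and 4 (0, 223, 0 and 94.1 CPM). Called higher as well were Cxcr6 (44.7 against 0.98; 40.5, 61.7, 39.1 and 37.6 by library), Itgae, which binds E-cadherin (19.4 against 0.33), and Itgb1, whose absence helped to define the CD4 class and which is no finding. Lcn4 (0.91), Fam58b (0.77) and Cd8b1 (0.73) had the patterns most like Ccr9 over the 13 classes, which leave out plasmacytoid DC-like cells for their number.

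Within the CD8 cells Cxcr3 was higher and, from 1 to 6 markers, Ccr9 lower in cells with more effector-type markers. Cxcr3, the receptor for interferon-induced chemokines, was called higher in marker-positive over marker-negative CD8 T cells, alone of 7 receptors with enough counts (log2 ratio 4.05; library values 28.6, 34.3, 30.5 and 28.8 against 2.0, 1.8, 2.3 and 1.4 CPM; 2.09% of all genes were called higher). No receptor was called lower (0.523% of all genes). When all 6887 CD8 T cells were ordered by the number of the 7 markers detected, from 0 to 7, Cxcr3 went from 1.8 to 102 CPM. Ccr9 was 76.5 CPM in cells with no marker, 123 with 1, 76.0 with 3, 33.8 with 4 and 12.5 with 5. Ccr7 stayed between 197 and 215 CPM up to 4 markers and was 111 at 5, and S1pr1 went from 300 to 155. Ccr2 was 6.0 CPM with no marker and 97.1 with all 7, and Gpr183 66.2 with 1 and 196 with 7.

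Cells with more markers were also deeper, with medians of 5166 UMIs at 0 markers and 11369 at 7, so that detection and depth move together. When every cell was thinned to 1500 UMIs and counted for markers again, Cxcr3 was 5.5, 13.6, 35.7 and 62.4 CPM at 0 to 3 markers (1454, 1955, 821 and 171 cells), and Ccr9 was 132, 116, 87.7 and 23.4. From 0 to 3 markers Cxcr3 was thus higher and Ccr9 lower at each step at equal depth. Ccr7 in the thinned cells was 227, 223, 191 and 152 CPM. Above 3 markers, fewer than 40 thinned cells were left in each step.

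**Figure D2:**
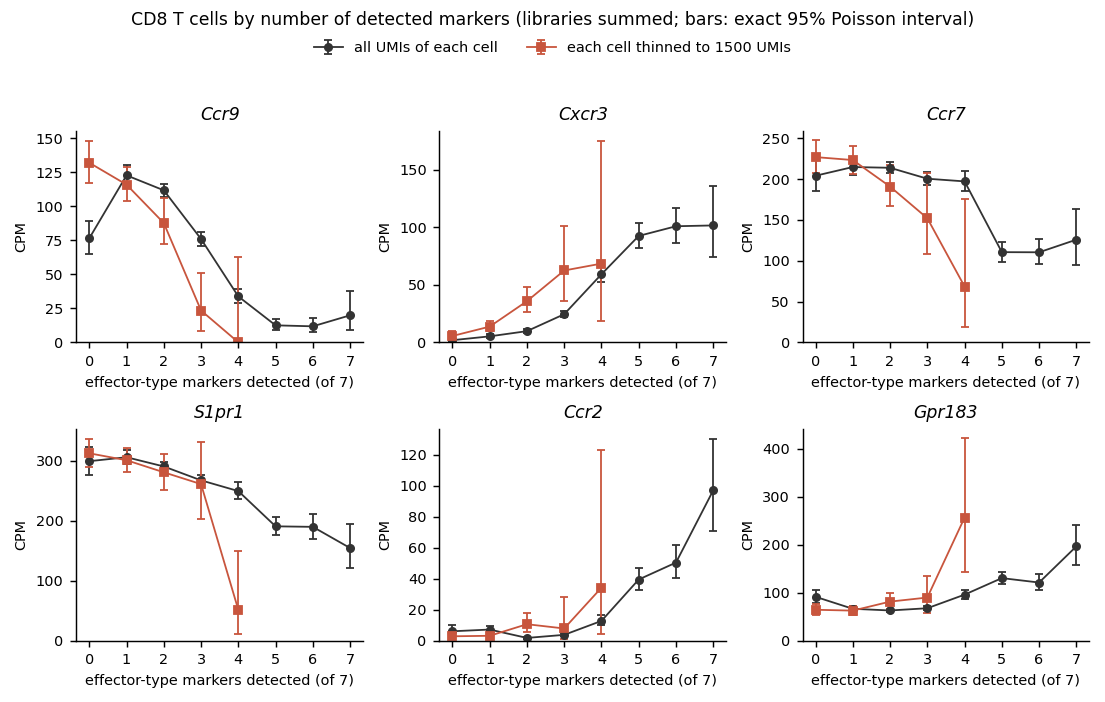
Receptors in CD8 T cells by the number of effector-type markers detected (horizontal axis, 0 to 7) in CPM (vertical axis, linear). Black points use all UMIs and red points use cells thinned to 1500 UMIs and gated again, shown for steps of at least 30 cells, and bars are exact 95% Poisson intervals of the 4 libraries summed. Ccr9 is 123 CPM at 1 marker and 12.5 at 5, and Cxcr3 is 5.2 and 92.4 at the same steps.

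The 434 CD8 cells with 5 or more markers were set against the 1808 with 0 or 1, a split chosen after the gradient was seen. Of 9 receptors with enough counts, 3 were called higher (5.25% of all genes): Cxcr3 (log2 ratio 4.41), Cxcr5 (3.06) and Ccr2 (2.80). Called lower were 3 (2.37% of all genes): Ccr9 (-3.14), Ccr7 (-0.93) and Ccr6 (0 against 51 UMIs, at least 8.13-fold lower). Gpr183 (0.90) and S1pr1 (-0.70) missed the rule in 1 library each. Of the other homing genes the inflammatory receptor Cx3cr1 (6.8 against 0.45 CPM) was called higher, as was Xcl1 (107 against 17.8), and Itgae was called lower (4.9 against 36.7). Split by a single receptor instead, the 825 CD8 cells with a Cxcr3 UMI had 17.6 CPM of Ccr9, against 101 in the 6062 without one, in the same direction in every library (19.9 against 110, 30.6 against 107, 9.2 against 99.7 and 10.9 against 92.0). Ccr7 was 142 against 210 and S1pr1 206 against 288. The cells with a Cxcr3 UMI were deeper (median 9446 against 6842 UMIs).

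Follicle-homing Cxcr5 marked B-like cells, at 76.6, 75.8, 77.1 and 81.5 CPM. Germinal centre B-like cells had 45.7, 42.2, 58.5 and 52.9. Follicular helper-like T cells, gated on markers of the T cells that help B cells in follicles, had 29.1, 38.3, 12.1 and 5.3 (14, 14, 3 and 1 UMIs). Every other class was under 10 CPM. Fcrl1, Gm30211 and Iglc3 were the genes most like it over the classes (0.94, 0.93 and 0.89). Ccr6 had 2 main sites, IL-17-type gamma-delta T-like cells (263, 307, 201 and 125 CPM) and B-like cells (98.0, 102, 96.9 and 96.1), with regulatory T-like cells (24.9, 39.4, 41.8 and 46.0) next. Gpr183 was shared by many classes. It was 194, 227, 233 and 139 CPM in IL-17-type gamma-delta T-like cells, 186, 179, 160 and 152 in B-like cells, and 115 to 129 in marker-negative CD4 T cells, and its 6 highest classes overlapped with their neighbours over the libraries.

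B-like cells differed from marker-negative CD4 T cells in 6 of 8 receptors with enough counts. Called higher were 4 (17.2% of all genes): Ccr6 (log2 ratio 8.23), Cxcr5 (6.10), Cxcr4 (1.63) and Ccr2 (183 against 0 UMIs, at least 9.39-fold). Called lower were 2 (7.08% of all genes): Ccr7 (-1.45, libraries -1.58 to -1.28) and S1pr1 (-1.29, -1.47 to -1.13). Gpr183 was 1.39-fold higher and under the fold rule in all 4 libraries. The Ccr2 call did not hold without the 113 B-like cells carrying myeloid or dendritic markers. They held 139 of the 183 UMIs, and without them Ccr2 was 1.14 CPM in B-like cells instead of 4.58. The cells with the largest Ccr2 counts had 5 or 6 of 8 monocyte markers in libraries 2 to 4 and 8 of 8 NK markers in library 1. Cxcl13, the ligand of Cxcr5, had 518 UMIs in B-like cells and none in marker-negative CD4 T cells. Spns2, a sphingosine 1-phosphate exporter, had 234 and none, and Cxcl16 was 13.1 against 0.33 CPM. Itgb1 was again higher (20.8 CPM against 0) by the definition of the CD4 class.

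Germinal centre B-like cells, in which B cells mutate and select their antibody genes, had less S1pr1 and Gpr183 than other B-like cells. The class held 369 cells, very unevenly: 161, 171, 16 and 21. S1pr1 was 11.9, 11.1, 84.4 and 66.2 CPM, against 147 to 164 in other B-like cells, and was called lower in every library (log2 ratio -3.36, or 10.2-fold). Gpr183 was 27.4, 12.2, 65.0 and 79.4, against 152 to 186 (-2.89, or 7.42-fold). At a fold of 2 neither was called, since S1pr1 in library 3 (log2 ratio -0.84) and Gpr183 in library 4 (-0.93) were under it, and S1pr1 was not called after thinning. Both are receptors known to be lost when B cells enter germinal centres. Ccr7 (-3.02) and Ccr6 (-2.77) were not called over all libraries, because in library 4 Ccr7 was 152 against 94.6 CPM and Ccr6 66.2 against 96.1. Cxcr5 (-0.81) and Cxcr4 (0.36) were not called either. By the rule 5 of 9 receptors were called lower, beside 14.8% of all genes, and none higher (13.4% of all genes). The other 3 calls, Ccr9 (4 UMIs), Cxcr3 (3 UMIs) and Ccr2, rest on libraries 1 and 2 alone and did not hold when either was left out. The Ccr2 call stands against its sum (log2 ratio 0.18): 22 of its 26 UMIs were in 1 cell of library 4 with 7 of 8 monocyte markers, and without cells carrying such markers the ratio was -2.47.

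The 16 and 21 gated cells of libraries 3 and 4 had more Klf2 (286 and 430 CPM against 76.8 and 60.8 in libraries 1 and 2) and less of the germinal centre marker Eaf2 (84.4 and 86.0 against 239 and 240) and of S1pr2 (71.4 and 6.6 against 149 and 119). Of the other check markers, Basp1, Nuggc and Tox were also lower in libraries 3 and 4. Mki67 (573, 773, 630 and 126 CPM) and Fas (104, 99.5, 110 and 52.9) were lower in library 4 only. Ccr7 in library 4 was 152 CPM, of which 18 of 23 UMIs were in 1 cell with 7 of 7 mature DC markers that was also called a doublet. Whether the receptor values of libraries 3 and 4 reflect admixed cells was not tested. In libraries 1 and 2 alone, an alternative added after these values were seen, 8 of 9 receptors were called lower (22.3% of all genes) and none higher (19.5%): Ccr7 -3.95, S1pr1 -3.76, Gpr183 -3.24, Ccr6 -3.07 and Cxcr5 -0.80 besides the 3 sparse ones. The receptor not called was Cxcr4, with a log2 ratio of -0.25 and -0.24 in these libraries.

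Among other homing genes, 7 of 33 with enough counts were called higher and 8 lower in germinal centre B-like cells over all libraries, with a median log2 ratio of -0.32 (-0.01 over all genes). S1pr2, the sphingosine 1-phosphate receptor that holds cells in the germinal centre, was called higher (127 against 1.25 CPM), as was Ackr4, a scavenger of Ccl19, Ccl21 and Ccl25 (16.5 against 0.10). Ccr1 (0 against 127 UMIs, at least 5.32-fold) and Spns2 (1 against 234 UMIs) were called lower. The class thus had high S1pr2 and low S1pr1, 2 receptors for 1 lipid with opposite known effects on movement.

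**Figure D3:**
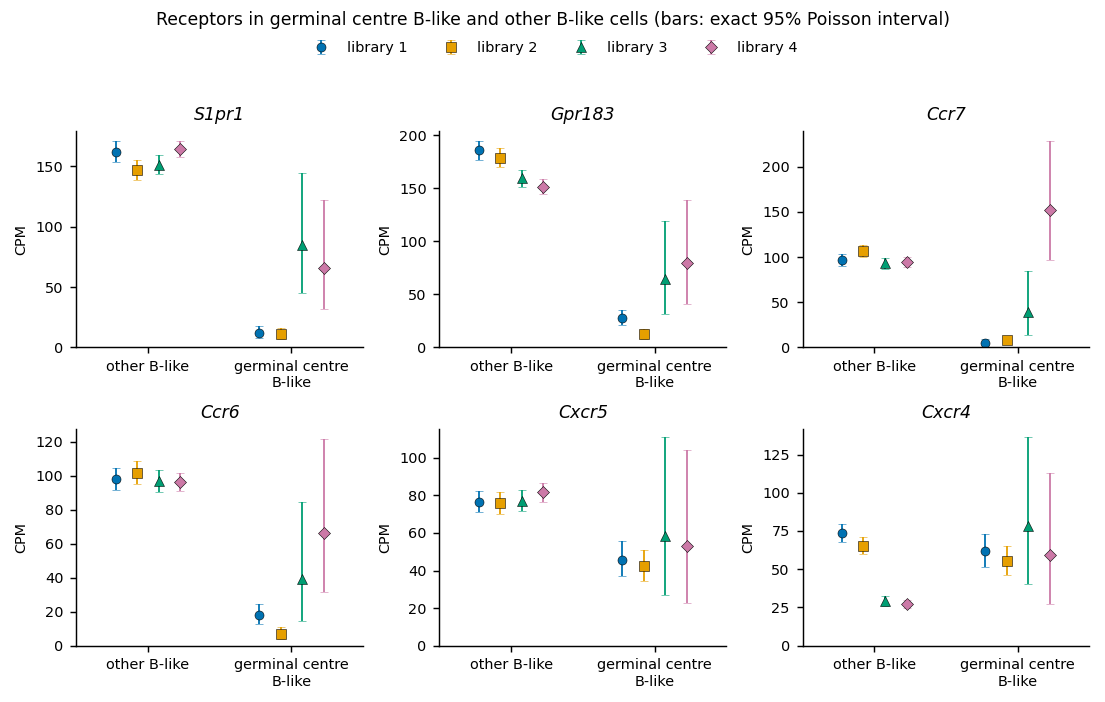
Receptors in other B-like and germinal centre B-like cells, in CPM (vertical axis, linear from 0), with 1 point per library and exact 95% Poisson intervals. In libraries 1 and 2 S1pr1 is 11.9 and 11.1 CPM in germinal centre B-like cells against 162 and 147, and libraries 3 and 4, with 16 and 21 cells, lie higher with wide intervals.

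Follicular helper-like T cells had less S1pr1 than marker-negative CD4 T cells and more Cxcr3, Ccr2 and Cxcr5. S1pr1 was 156, 142, 129 and 154 CPM, against 355 to 408 in marker-negative CD4 T cells, and was the 1 receptor called lower of 7 with enough counts (log2 ratio -1.39, libraries -1.54 to -1.19; 3.09% of all genes). Called higher were 3 (10.2% of all genes): Cxcr3 (70.7, 76.6, 60.4 and 95.8 CPM against 1 UMI in 1137 cells), Ccr2 (50 against 0 UMIs, at least 79.9-fold) and Cxcr5 (log2 ratio 4.45). These 3 were counted in libraries 1 and 2 only, since libraries 3 and 4 had 20 and 22 cells of the class, and none was called when library 1 or 2 was left out. The levels of Cxcr3 and Ccr2 (41.6, 41.1, 32.2 and 37.3 CPM) were similar in the 4 libraries. The shares of all genes depend on scaling. With TMM and median-of-ratios scaling 601 and 666 genes were called lower instead of 223, and 374 and 355 higher instead of 736. The check markers of the class other than Sh2d1a were lowest in library 4. Sostdc1 was 131, 123, 92.6 and 0 CPM, and Slamf6 418, 372, 242 and 144. Sh2d1a was 299, 257, 157 and 197, against 54.8 in all other kept cells. How far the gated cells of library 4 are follicular helper cells was not tested. Ccr7 was 125, 167, 270 and 341 CPM, which would place the class within the T-cell range. However, 131 of its 252 UMIs came from 8 of the 136 cells that also reached the mature DC marker minimum, and without them Ccr7 was 118, 96.0, 121 and 94.1 CPM. The log2 ratio to marker-negative CD4 T cells was then -1.28 instead of -0.43 and was called lower. Gpr183 was 133, 285, 64.4 and 58.6 CPM and followed no direction. In library 2, globin UMIs made up 79.4% of 1 follicular helper-like cell (53856 CPM of the class), and CPM values of that library are lowered by it. Rgs1 was called higher (143 against 13.3 CPM), as were Cxcl16 (63.1 against 0.33) and the integrin Itgal (173 against 57.9), while Itgb1 helped to define the class compared with.

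Regulatory T-like cells carried tissue- and inflammation-homing receptors that marker-negative CD4 T cells lacked. Ccr2 was 68.5, 53.7, 137 and 79.8 CPM, against no UMI in 1137 cells (at least 182-fold). Ccr6 (log2 ratio 6.93, 148 against 2 UMIs) and Cxcr3 (7.29, 95 against 1) were the other receptors among 3 of 8 called higher (15.8% of all genes). Called lower were 2 (2.41% of all genes): Ccr7 at 104, 121, 108 and 154 CPM (-1.09) and S1pr1 (libraries -1.07 to -0.94). The shares of all genes depend on scaling. With TMM and median-of-ratios scaling 625 and 577 genes were called lower instead of 223, and 894 and 900 higher instead of 1467. After thinning every cell to 1500 UMIs none of the 5 receptors was called. Ccr2 was spread unevenly within the class. The 65 cells with a Ccr2 UMI had 29.2 CPM of Ccr7, against 168 in the 364 without one, and 144 against 214 CPM of S1pr1, while Ccr6 was 40.3 and 39.3 CPM and Cxcr3 24.9 and 25.7. The first cells were much deeper (median 13170 against 5288 UMIs), and the part of depth or cell state was not tested. Ccr10 (125 against 0 UMIs), Ccr4 (64 against 0) and Itgae (64.5 against 0.33 CPM) were called higher among the other homing genes, of which 9 of 29 were called higher and none lower (median log2 ratio 0.40, against 0.31 over all genes). Ccr4 and Ccr10 are known for skin homing.

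The 2 groups of gamma-delta T cells differed in most of the receptors tested. IL-17-type cells, with at least 2 of 8 markers such as Il17a, had Ccr2 at 429, 814, 584 and 310 CPM and Ccr6 at 263, 307, 201 and 125. Other gamma-delta T-like cells had Ccr2 at 45.2, 0, 40.1 and 9.5 and no Ccr6 UMI. The latter had Cxcr3 at 90.4, 88.9, 112 and 100 CPM, the highest of all classes together with follicular helper-like T and NK-like cells, against 2 UMIs in 76 IL-17-type cells. By the rule 2 of 8 receptors were called higher in IL-17-type cells (10.7% of all genes), Ccr2 (log2 ratio 4.42) and Ccr6 (at least 47.0-fold). Called lower were 3 (4.3% of all genes): Cxcr3 (-5.16), Ccr9 (-2.19, with 10 UMIs and no call without library 2 or library 4) and S1pr1 (124, 187, 140 and 99.6 against 330, 314, 401 and 415 CPM; -1.50). Ccr7 was 0, 26.7, 41.5 and 121 CPM in IL-17-type cells, and 24 of its 49 UMIs were in 2 cells of 68687 and 65716 UMIs. Itga4 was 20.2 against 297 CPM and was called lower, as was Xcl1 (1 against 72 UMIs). Ccr10 was called higher (154 against 4.0 CPM). The IL-17-type class rests on 10, 12, 31 and 23 cells.

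NK-like cells had high Ccr2 (867, 728, 505 and 486 CPM), no Ccr7 UMI and less S1pr1 than marker-positive CD8 T cells. Against marker-positive CD8 T cells, 3 of 4 receptors with enough counts were called lower (6.36% of all genes): Ccr7 (0 against 8142 UMIs, at least 22.1-fold), Ccr9 (1 UMI, log2 ratio -4.77) and S1pr1 (122, 13.5, 42.1 and 37.4 CPM; -2.41). None was called higher (8.54% of all genes). These shares depend on scaling. With TMM and median-of-ratios scaling 781 and 1238 genes were called lower instead of 175, and 76 and 67 higher instead of 235. Ccr2, with 210 UMIs in NK-like and 392 in CD8 cells, could not be counted because under 3 UMIs would be expected in the NK-like cells of each library at equal levels, although the CPM values are 620 and 9.40 (log2 ratio 6.04). Cxcr3 was 60.9, 121, 58.9 and 37.4 CPM and could be counted in only 1 library. Xcl1 was called higher (531 against 32.8 CPM), as were the integrins Itgb1 (549 against 58.2), Itgb2 (419 against 83.6) and Itgal (301 against 70.4).

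Ccr2 was highest in monocyte-like cells, the cells that leave the bone marrow through it, at 1122 CPM (1006 to 1247). All 4 libraries contributed to the 344 UMIs of 33 cells (43, 45, 135 and 121). Macrophage-like cells had none in 135 cells, but these cells were shallow, with a median of 1053 UMIs and a limit of 14.8 CPM at 3 counts. Ccr2 was the 1 receptor with enough counts between the 2 classes and was called higher in monocyte-like cells (at least 76.0-fold; 23.6% of all genes were called higher and 9.79% lower). Itga4 (571 against 24.6 CPM) and Cx3cr1 (368 against 24.6) were called higher too, and Ccl12, a ligand of Ccr2, was called lower (4 against 56 UMIs). Ccr2 also reached 285 CPM in cDC1-like and 218 in plasmacytoid DC-like cells, with intervals that overlap (225 to 356 and 162 to 288). The order of the leading classes was thus monocyte-like, then NK-like and IL-17-type gamma-delta T-like, which overlapped, then these DC classes, then regulatory T-like cells.

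Cxcr4 was spread over many classes and differed between libraries. By sum its 6 highest classes, from monocyte-like (65.2 CPM) to B-like (45.8), had overlapping Poisson intervals with their neighbours. In B-like cells it was 73.6, 65.1, 29.0 and 27.2 CPM, in marker-positive CD8 T cells 35.9, 29.9, 16.6 and 12.2, in marker-negative CD4 T cells 24.1, 26.4, 8.1 and 6.1, and in other CD4 T cells 19.9, 16.5, 9.0 and 7.1. In each of these 4 classes the Poisson intervals of the highest and lowest library lie apart. They also lay apart in other gamma-delta T-like cells (122 in library 1, 23.8 in library 4) and follicular helper-like T cells (45.7 and 0). Germinal centre B-like cells (61.7, 55.3, 77.9 and 59.6), regulatory T-like cells (31.1, 34.6, 25.4 and 23.4) and mature DC-like cells (74.9, 43.7, 49.7 and 63.9) had overlapping intervals. The germinal centre class held only 16 and 21 cells in libraries 3 and 4. Its intervals there are wide, and a difference of the size seen in B-like cells could go unseen. Few genes varied as much: of 2611 genes with at least as many UMIs in B-like cells, 0.536% had a highest-to-lowest library ratio at or above that of Cxcr4 (2.71). The share was 0.243% of 4117 genes in marker-positive CD8 T cells (ratio 2.95), 0.129% of 5436 in marker-negative CD4 T cells (4.32) and 0.717% of 6140 in other CD4 T cells (2.81), but 69.6% in germinal centre B-like and 39.4% in regulatory T-like cells. These genes were counted as a description and are not independent.

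A library difference of this kind cannot be told apart from mouse, treatment, or handling of a library, since the suffixes are not tied to the samples. Cxcr4 is known to respond to handling and to glucocorticoids. A list of 15 handling-stress genes summed to 2391, 2557, 2550 and 2522 CPM in B-like cells, and a list of 6 glucocorticoid-induced genes to 255, 259, 200 and 199. In marker-positive CD8 T cells the sums were 1949, 1933, 2131 and 2122, and 229, 233, 208 and 199. The sums were carried by abundant genes such as Hspa8, and single members differed by library: in B-like cells Jun was 68.4, 62.8, 103 and 109 CPM, Fos 17.0, 21.1, 37.6 and 33.6 and Ddit4 50.6, 48.6, 28.4 and 25.3. Jun in marker-positive CD8 T cells was 17.0, 17.6, 34.1 and 38.0. Jun and Fos were thus higher in libraries 3 and 4, opposite to Cxcr4, while Ddit4 was lower there, as Cxcr4 was. In B-like cells Fosb, Junb and Jund were also higher in libraries 3 and 4, and Hsp90aa1, Nfkbia and Tsc22d3 were lower there. Jund was 546, 602, 683 and 692 CPM, and Tsc22d3 was 176, 183, 145 and 148. Some members did not divide the libraries in this way. In B-like cells Ier2 was 126, 134, 129 and 127 CPM and Hspa8 625, 672, 626 and 627. The part of handling or glucocorticoids in the Cxcr4 values was not tested. Over the classes with enough counts, S1pr1 had a median highest-to-lowest ratio of 1.21 over 11 classes, Ccr7 of 1.33 over 10 and Gpr183 of 1.37 over 11, against 2.76 for Cxcr4 over 10 classes. The ratio was also high for Ccr6 (3.53 over 7 classes), Ccr2 (2.22 over 7) and Cxcr3 (2.04 over 7), and it was 1.51 for Ccr9 over 6 and 1.38 for Cxcr5 over 5.

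**Figure D4:**
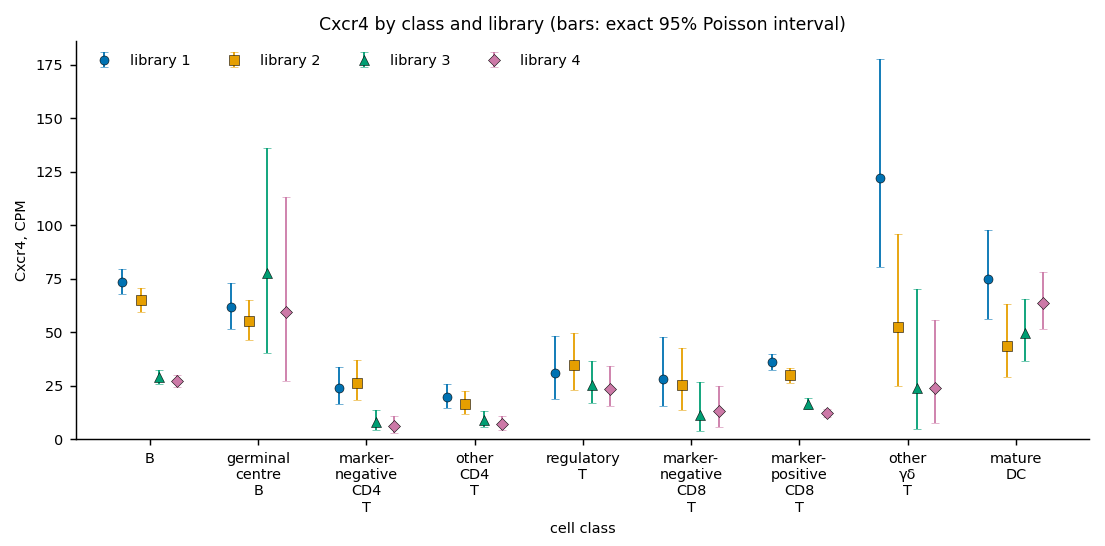
Cxcr4 by cell class (horizontal axis) in each library, in CPM (vertical axis, linear from 0) with exact 95% Poisson intervals. In B-like cells the libraries are at 73.6, 65.1, 29.0 and 27.2 CPM. Those of germinal centre B-like cells overlap, with only 16 and 21 cells in libraries 3 and 4.

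The other receptors had like-patterned genes of different strength over the same 13 classes. Sept11 (0.96), Car5b (0.95) and Mgat5 (0.95) were nearest to Ccr2, and Sema4b (0.92), Selenot (0.87) and Trnt1 (0.86) to Ccr6. Rnf19a, Sox4 and Pcgf5 (0.86, 0.86 and 0.86) were nearest to Ccr7, each with its highest level in mature DC-like cells. Chd1 (0.90), Nae1 (0.86) and Cytip (0.85) were nearest to Gpr183, and Herpud1, Apobec3 and Pmvk (0.81, 0.81 and 0.79) to Cxcr4. Ctla2a (0.90), Il2rb (0.87) and Nkg7 (0.85) were nearest to Cxcr3, of which Il2rb and Nkg7 are among the markers that define the CD8 classes. Xcr1 did not reach 50 CPM in any of these 13 classes, which leave out cDC1-like cells, and no genes are given for it. Between members, Gpr183 with S1pr1 had the highest correlation (0.64), followed by Ccr7 with Gpr183 (0.59), and Xcr1 with Gpr183 the lowest (-0.61), followed by Cxcr4 with S1pr1 (-0.54).

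Of the 13 contrasts fixed for the classes, 11 could be made, since plasma cell-like and cDC2-like cells numbered 9 and 13. Over these, 37 receptor calls were made, and 14 held under every alternative that was tried. The 14 were Ccr6, Ccr7, Cxcr4, Cxcr5 and S1pr1 between B-like and marker-negative CD4 T cells, S1pr1 in follicular helper-like T, Cxcr3 in marker-positive CD8 T, Ccr9 between the marker-negative CD8 and CD4 classes, Ccr2 and Ccr6 between the gamma-delta classes, Ccr7 and S1pr1 in NK-like cells, Ccr7 in mature DC-like cells and Ccr2 in monocyte-like cells.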

How the data were processed

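The 4 libraries of tumour-draining lymph node cells (10x 3' version 3, 2 control and 2 treated mice) were deposited as 1 matrix of raw UMI counts per gene and barcode. The deposited counts were made with Cell Ranger 5.0.0, per the file headers, on mm10, per the submitters' processing notes; normalisation of read depth between libraries is not given in the sources used here. Barcodes under 300 genes or over 10% mitochondrial UMIs were dropped; the rest were gated by fixed marker lists that contain no receptor and summed per class and library to CPM. Doublets were removed by marker conflict only; Scrublet in scanpy 1.11.5 served as an alternative. With no map from libraries to mice the matrix was treated as 1 sample and no test was made; classes were compared by ratios within each library. Calls used a fold of 1.5 in every library with at least 10 counts over both classes and 3 expected in each, in at least 2 libraries, over all genes; the script was checked on simulated counts. A zero count was bounded at 3 counts over the class. Members and lists were chosen with earlier results of these data known. All 10 receptors are named, plus up to 4 called genes per contrast of a list of 59 homing genes by size of ratio, and the 3 genes most like each receptor. Some genes that this rule picks are not reported here. Alternatives were TMM (edgeR 4.0.16) and median-of-ratios (DESeq2 1.42.0) scaling, count minimums, fold, cell filter, doublet calls, thinning, stricter gates, shared barcodes and each library left out; 5 more were added after the data were seen.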

Additional observations from a re-analysis of the deposited data

Results flagged for a closer look

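Classes under 20 cells entered no comparison, and receptors were seen in 3 of them above the limit of 3 counts. In 16 neutrophil-like cells Cxcr4 was 468 CPM (303 to 691), from 2, 16, 4 and 3 UMIs in libraries 1 to 4, higher than in any class compared. In 13 cDC2-like cells, dendritic cells that prime CD4 T cells, Gpr183 was 330 CPM, with 43 of 45 UMIs in library 1. The same cells had Ccr2 at 242 CPM (18, 8, 1 and 6 UMIs) and Ccr9 at 66 CPM, all 9 UMIs in library 1. In 9 plasma cell-like cells Cxcr4, known to draw plasma cells to bone marrow, was 35.5 CPM (9 UMIs, in libraries 1 and 2). These classes are too small for values per library.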

How the results depend on the processing

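No paired analysis was possible because the results come from no test; the fold rule already compares classes within each library. The 37 calls became 59 with no minimum beyond 1 count, 22 with 30 counts and 10 expected, and 19 after thinning to 1500 UMIs, and 29 to 39 as each library was left out. The number of receptors called in germinal centre B-like over other B-like cells (5) was 2 with no minimum, 2 with 30 counts, 2 with at least 3 libraries, 2 with a fold of 2, 3 after thinning, 8 in libraries 1 and 2, and 2 to 7 with 1 library left out. That of follicular helper-like T (4) was 1 with 30 counts, at least 3 libraries, thinning or 1 more gate marker, 2 without the cell of the largest count, and 1 to 4 with 1 library left out. That of mature DC-like cells (4) was 9 with no minimum, 1 with 30 counts, 2 with at least 3 libraries, 1 after thinning, 2 without the cell of the largest count, and 2 to 4 with 1 library left out. Regulatory T-like cells (5) had 3 with a fold of 2 and 0 after thinning, and IL-17-type gamma-delta T-like cells (5) had 3 with 30 counts, a fold of 2 or thinning. With no minimum, the calls were 3 instead of 1 in marker-positive CD8 T, 4 instead of 1 in marker-negative CD8 T, 7 instead of 3 in NK-like, 4 instead of 2 in plasmacytoid DC-like and 4 instead of 1 in monocyte-like cells. Plasmacytoid DC-like cells had 1 with 30 counts, with 500 genes and 5% mitochondrial UMIs, after thinning and without the cell of the largest count. Marker-positive CD8 T had 2 without the cell of the largest count and 6 for 5 or more markers against 0 or 1.

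The Ccr2 log2 ratio of germinal centre B-like cells (0.18) was -0.12 with TMM, -0.077 with median-of-ratios scaling, -0.38 with 500 genes and 5%, -2.71 with 1 more gate marker, -2.54 to 1.26 with 1 library left out (the lowest without library 4), -2.02 without the cell of the largest count, -2.47 without cells carrying myeloid or dendritic markers and -2.68 in libraries 1 and 2. After thinning, Ccr9 (0.66) and Cxcr3 (1.03) in that class changed sign, as did Cxcr3 without library 2 (its values with 1 library left out were -2.85 to 0.16). The Ccr2 call between B-like and marker-negative CD4 T cells gave no value after thinning, nor did 7 sparse receptor contrasts with no minimum. Fewer counts are tested under the stricter minimums and after thinning; the cause of the other changes was not tested.

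TMM and median-of-ratios scaling moved the median log2 ratio of all genes by -0.80 and -1.02 in NK-like, 0.69 and 0.71 in mature DC-like, -0.48 and -0.52 in follicular helper-like T, -0.42 and -0.38 in regulatory T-like, -0.29 and -0.25 in germinal centre B-like and 0.19 and 0.36 in marker-positive CD8 T contrasts. Neither scaling called any of the 37 in the opposite direction. The Ccr2 sum of germinal centre B-like cells changed sign, to that of its call. The share of calls over all genes that were higher went from 57.3% to 8.87% and 5.13% in NK-like, 65.8% to 89.8% and 90.1% in mature DC-like, 76.7% to 38.4% and 34.8% in follicular helper-like T, 86.8% to 58.9% and 60.9% in regulatory T-like, 47.5% to 27.8% and 26.2% in germinal centre B-like, 80% to 92.6% and 96.7% in marker-positive CD8 T, 57.6% to 40.6% and 39.3% in marker-negative CD8 T, 71.4% to 54.2% (TMM) in IL-17-type and 58.6% to 48.0% and 43.1% in plasmacytoid DC-like contrasts. Of 90 alternative values for the highest level of each receptor, 77 lay within its Poisson interval. Classes of 23 to 76 cells limit what could be seen in dendritic, monocyte-like, NK-like and IL-17-type cells.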
